A study of Mus musculus with 12 samples.

Results

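The genes described are 10 whose products make or regulate sebum lipids in skin: the fatty acid elongases Elovl3 and Elovl4, the desaturases Scd1 and Scd3, the fatty acyl-CoA reductase Far2, the acyltransferases Awat2, Dgat2 and Soat1, the fatty acid hydroxylase Fa2h, and the melanocortin receptor Mc5r. They were chosen by symbol, 1 row each of the 55453 genes in the count file, with earlier results of these data known, among them a higher Elovl3 level in KO BLM than in WT BLM skin. All 10 passed the filter on low counts, as did 18311 of all genes. RNA-Seq was carried out on skin of 12 female mice of strain C57/BL6, 3 in each of 4 groups, to compare the response to bleomycin between WT mice and mice deficient for the surface glycoprotein Thy-1.

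WT PBS and KO PBS mice received PBS, and WT BLM and KO BLM mice received 10 mg/kg/day bleomycin, a drug that causes skin fibrosis, by daily s.c. injection into the dorsal back for up to 14 days. Skin was taken on day 21. The mice were 8 to 12 weeks old. KO denotes the genotype labelled Thy1-knockout, in mice backcrossed to C57BL/6 with littermates as controls; the labels name no Cre and no cell type for the deletion. Each library came from 1 mouse, and no source used here gives the hair cycle stage of the skin.

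Sebaceous glands are attached to hair follicles. Their cells, sebocytes, fill with lipid droplets as they mature and then burst, releasing sebum that coats hair and epidermis. Mouse sebum is rich in wax esters and sterol esters; fatty acids are made, lengthened and desaturated, part of them are reduced to fatty alcohols, and acyltransferases join the products into neutral lipids. Dermal adipocytes share part of this machinery, including Scd1 and Dgat2. In bulk skin, fewer sebocytes and less RNA per sebocyte cannot be told apart.

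The libraries held between 26473700 and 38890450 counts (median 31494965), and each mouse's values are given as CPM, counts per 1000000 counts of a library size normalized by TMM. Thy1 was at 104, 115 and 149.6 CPM in WT PBS, 231, 349 and 416 CPM in WT BLM, 45.6, 96.9 and 77.4 CPM in KO PBS and 84.7, 128 and 96.4 CPM in KO BLM mice. The KO mice lay below the WT mice of the same treatment, but Thy1 was not near 0, and the sources used here do not give the deleted part. A list of 29 hair genes, expressed in the shaft and inner root sheath during growth, moved with the groups. Its mean log2 CPM was 9.13 to 9.85 in WT PBS mice and −0.29, 3.13 and −0.41 in WT BLM replicates 145, 146 and 147. It was 9.74 in KO PBS replicate 136 but −0.73 and 2.48 in replicates 137 and 139, and 8.72 in KO BLM replicate 141 but 4.57 and 5.75 in replicates 143 and 144. KO PBS 136 and KO BLM 141 thus stood apart from their groups, and results are given with and without them. WT BLM 146 also stood above the other WT BLM mice. With 7.19 against 5.22 and 5.62, it had the highest mean log2 CPM of its group for a list of 16 dermal adipocyte genes. This mouse was left out only in the fits without single mice. A list of 12 sebaceous gland cell markers was detected in every mouse, with a mean log2 CPM of 4.65 to 5.11 in WT BLM, 5.15 to 5.34 in WT PBS, 5.12 to 6.12 in KO PBS and 5.32 to 5.57 in KO BLM mice.

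Scd1 and Scd3 lie on the same chromosome and are near copies of each other. Over their aligned coding sequences 90.4% of positions were identical, against 47.3% for Elovl3 and Elovl4 and 52.6% for Awat2 and Dgat2. Of the 50-base stretches of the Scd1 coding sequence, 21.9% occurred unchanged in another gene (Scd2, Scd3, Scd4 or an unnamed gene model), as did 21.3% of those of Scd3, and none (0%) of those of the other 8 genes. A pair of contrasting windows of 100 coding bases are shown (GENCODE M21 transcripts, GRCm38, coding strand), because they set how far reads of the pair can be told apart. The first window, coding bases 463 to 562 of Scd1 and 475 to 574 of Scd3, held 0 differences. The second, coding bases 282 to 381 of Scd1 and 294 to 393 of Scd3, held the most differences of any such window, 20, marked in capitals.
Scd1 and Scd3, shared window: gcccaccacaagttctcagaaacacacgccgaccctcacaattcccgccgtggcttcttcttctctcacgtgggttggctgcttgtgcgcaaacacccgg
Scd1, most different window: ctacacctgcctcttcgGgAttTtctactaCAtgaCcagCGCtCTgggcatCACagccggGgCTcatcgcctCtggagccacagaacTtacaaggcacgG
Scd3, most different window: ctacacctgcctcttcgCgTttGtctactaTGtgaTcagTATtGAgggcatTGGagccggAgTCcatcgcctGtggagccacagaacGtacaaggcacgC
A read that falls wholly within the first window fits both genes equally well, so the split of such reads is uncertain in what follows.

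Promoter sequence, 250 bases before to 50 bases after the start site, was given by RefSeq (GRCm38.p6) for 5 of the 10 genes: Scd3, Awat2, Far2, Elovl4 and Soat1. It is printed for Scd3, Awat2 and Far2, whose Spearman rho with each other over the 12 mice was 0.73 to 0.92. Elovl4, which is not printed, was at 0.92 with Far2 and 0.81 with Awat2. Capitals mark the motifs found. The search covered both strands for the CCAAT box (CCAAT), the GC box (GGGCGG), the TATA box (TATAAA), the E-box (CACGTG), the sterol response element (TCACNCCAC) and the PPAR half-site repeat (AGGTCA, 1 base, AGGTCA).
Scd3, chr19:44203038-44203337, plus strand: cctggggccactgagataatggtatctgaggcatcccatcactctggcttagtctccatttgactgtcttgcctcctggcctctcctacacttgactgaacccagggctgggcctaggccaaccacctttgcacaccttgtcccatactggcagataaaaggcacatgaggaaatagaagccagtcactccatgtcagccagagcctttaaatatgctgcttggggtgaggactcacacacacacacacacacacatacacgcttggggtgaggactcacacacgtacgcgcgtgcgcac
Awat2, chrX:100442668-100442967, minus strand: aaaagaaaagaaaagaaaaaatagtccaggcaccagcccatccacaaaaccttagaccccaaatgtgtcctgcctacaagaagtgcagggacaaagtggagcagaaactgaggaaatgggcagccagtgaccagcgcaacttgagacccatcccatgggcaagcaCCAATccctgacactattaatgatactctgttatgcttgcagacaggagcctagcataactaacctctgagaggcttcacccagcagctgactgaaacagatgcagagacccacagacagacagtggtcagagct
Far2, chr6:148047166-148047465, plus strand: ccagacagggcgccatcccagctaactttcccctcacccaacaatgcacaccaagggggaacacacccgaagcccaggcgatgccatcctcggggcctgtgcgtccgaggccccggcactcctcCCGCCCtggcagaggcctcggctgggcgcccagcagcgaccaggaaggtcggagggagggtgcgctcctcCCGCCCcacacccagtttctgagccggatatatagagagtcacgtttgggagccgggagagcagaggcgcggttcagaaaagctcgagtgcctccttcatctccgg
Of these motifs, the printed Awat2 window held 1 CCAAT box, at position −85 from the start site. A second Awat2 start site (chrX:100412538-100412837, minus strand), not printed, had a CCAAT box at −121 and a GC box at −70. The Far2 window held the GC box at positions −126 and −56, both on the opposite strand, and the Scd3 window held none of the motifs. The Elovl4 window, not printed, held a CCAAT box at 25, an E-box at 5 and GC boxes at −14 and −9. That of Soat1, also not printed, held a CCAAT box at −30 and a GC box at 29. Over 32851 promoter windows of the same length, 37.4% held a CCAAT box, 35.7% a GC box, 13.6% a TATA box, 7.15% an E-box, 1.24% the sterol response element and 0.0396% the PPAR half-site repeat. The last 2 were in no window of the 5 genes, which says only that these letters are not in these windows.

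Per kilobase of exon, Scd1 was the most abundant of the 10 genes in every group. In WT PBS skin its level was 231 CPM per kb, followed by Elovl4 at 130.5, Dgat2 at 49.6, Fa2h at 46.5 and Elovl3 at 32.6 CPM per kb. Scd3 was at 24.6, Far2 at 17.9, Soat1 at 14.1, Awat2 at 11.7 and Mc5r at 7.92 CPM per kb. In WT BLM skin Scd1 was at 227 and Mc5r at 1.04 CPM per kb.

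**Figure D1:**
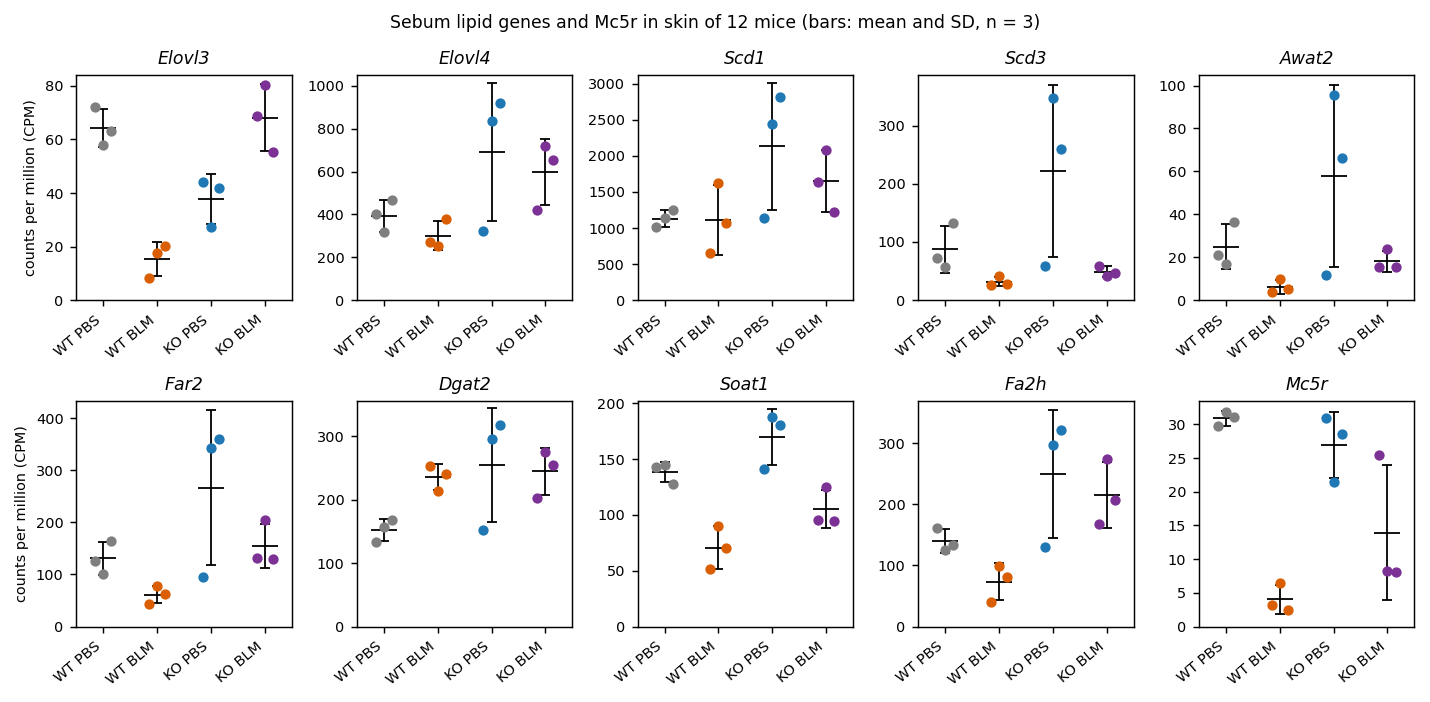
CPM of each gene (vertical axis) in every mouse of the 4 groups (horizontal axis), with the mean and SD of each group (n = 3). In KO PBS mice 8 genes had 1 low mouse, replicate 136, and 2 high ones, whereas Elovl3 stayed at 27.2 to 44.3 CPM.

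Bleomycin in WT mice was compared first. Bleomycin-treated WT skin had lower levels of 9 of the 10 genes, and 4 of them fell past the threshold: Elovl3, Mc5r, Soat1 and Awat2. Mc5r fell by 2.93 and Elovl3 by 2.06 on the log2 scale, and Dgat2 alone had a higher mean after bleomycin. The 4 calls of 10 stand beside 34.0% of all tested genes called in this comparison (edgeR's quasi-likelihood test, Benjamini-Hochberg adjusted p under 0.05 over 18311 genes), so the share was near the background. The median log2 fold change was −1.04 over the 10 genes and 0.02 over all genes tested. Values of WT PBS and WT BLM mice did not overlap for 8 of the 10 genes, 7 lower and 1 higher, against 57.0% of all genes.

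Elovl3 encodes an elongase of very long chain fatty acids that is active in sebaceous glands and brown fat. It was at 72.0, 58.0 and 63.0 CPM in WT PBS and at 8.30, 17.7 and 20.4 CPM in WT BLM mice, so that every bleomycin-treated mouse was below every control. It fell by 2.06 on the log2 scale (SE 0.31, adjusted p = 0.00431, edgeR). In KO mice the order was the opposite: 44.3, 27.2 and 41.7 CPM in KO PBS and 68.9, 80.3 and 55.4 CPM in KO BLM mice, again without overlap. The log2 fold change in KO mice was 0.85 (SE 0.30, adjusted p = 0.171), which did not pass the threshold. The group means ranked KO BLM (68.2 ± 12.4 CPM, SD, n = 3), WT PBS (64.3 ± 7.07), KO PBS (37.7 ± 9.23) and WT BLM (15.5 ± 6.34). The first 2 overlapped, and each later neighbour in this order was separate.

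Elovl4 encodes the elongase that extends fatty acids to the longest chains of the skin barrier. It was at 400.1, 318 and 467 CPM in WT PBS, 272, 253 and 378 CPM in WT BLM, 324, 835 and 918 CPM in KO PBS and 422, 718 and 652 CPM in KO BLM mice. WT groups overlapped, with a log2 fold change of −0.39 (SE 0.36, adjusted p = 0.413). Unlike Elovl3, Elovl4 was highest in 2 of the 3 KO PBS mice. The count ratio of Elovl3 to Elovl4 was 0.135 to 0.183 in WT PBS and 0.0306 to 0.0700 in WT BLM mice. It was 0.137 in KO PBS 136 and 0.0326 and 0.0455 in KO PBS 137 and 139.

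Scd1 encodes the main stearoyl-CoA desaturase of sebocytes, and mice that lack it (asebia) have rudimentary sebaceous glands. It was at 1008, 1138 and 1247 CPM in WT PBS and 649, 1619 and 1069 CPM in WT BLM mice, and the groups overlapped with a log2 fold change of −0.02 (SE 0.39, adjusted p = 0.967). Its related desaturase Scd3, whose expression is centred on skin, was at 72.0, 56.6 and 133 CPM in WT PBS and 26.2, 41.7 and 28.2 CPM in WT BLM mice. Every WT BLM mouse was below every WT PBS mouse for Scd3, but the log2 fold change of −1.45 (SE 0.54, adjusted p = 0.0596) missed the threshold. The count ratio of Scd3 to Scd1 was 0.0498 to 0.107 in WT PBS and 0.0258 to 0.0404 in WT BLM mice. It was 0.0514, 0.142 and 0.0924 in KO PBS and 0.0360, 0.0200 and 0.0380 in KO BLM mice, subject to the uncertain split of their shared reads.

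Wax ester synthesis needs a fatty alcohol, made by the reductase Far2, and an acyltransferase such as Awat2 that joins it to a fatty acid. Awat2 was at 21.2, 16.7 and 36.7 CPM in WT PBS and at 3.95, 9.88 and 5.02 CPM in WT BLM mice, without overlap. It fell by 1.98 on the log2 scale (SE 0.64, adjusted p = 0.0386, edgeR). Far2 was at 126, 101 and 165 CPM in WT PBS and 43.7, 77.7 and 62.5 CPM in WT BLM mice, also without overlap, with a log2 fold change of −1.10 (SE 0.44, adjusted p = 0.0737) that missed the threshold. Awat2 was the least stable of the 4 calls. It passed in 6 of 12 fits that each left out 1 mouse and missed the threshold without WT PBS 159, 160 or 161, WT BLM 145 or 147, or KO BLM 144, with a highest adjusted p of 0.116.

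Among the other acyltransferases, Soat1, which esterifies cholesterol, was at 143, 144 and 128 CPM in WT PBS and 51.4, 89.8 and 70.1 CPM in WT BLM mice. All 3 treated mice were below all controls, and Soat1 fell by 0.98 on the log2 scale (SE 0.20, adjusted p = 0.00921, edgeR). Dgat2, which completes triglycerides in sebocytes, adipocytes and liver, had higher values after bleomycin: 134, 156 and 168 CPM in WT PBS against 254, 214 and 241 CPM in WT BLM mice. Its groups did not overlap, and its log2 fold change of 0.63 (SE 0.25, adjusted p = 0.0694) missed the threshold. Levels of a list of 16 dermal adipocyte genes are set beside it: a mean log2 CPM of 5.69 to 6.15 in WT PBS and 5.22 to 7.19 in WT BLM mice. Of the 16 genes 2 were called higher and 0 lower, where 34.0% of all tested genes were called. The part of adipocytes in the Dgat2 values was not tested.

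Fa2h, which adds a hydroxyl group to fatty acids destined for sphingolipids and is needed for normal sebum, was at 162, 125 and 133 CPM in WT PBS and 39.7, 99.2 and 80.9 CPM in WT BLM mice. The groups did not overlap, and the log2 fold change of −0.93 (SE 0.38, adjusted p = 0.0796) missed the threshold. Mc5r encodes a receptor for melanocortin peptides that promotes secretion by sebaceous and other exocrine glands. It was at 29.7, 31.8 and 31.2 CPM in WT PBS and at 3.17, 6.52 and 2.46 CPM in WT BLM mice, without overlap, and it fell by 2.93 on the log2 scale (SE 0.49, adjusted p = 0.00516, edgeR). This was the lowest log2 fold change of the 10 genes in WT mice. Mc5r, Elovl3 and Soat1 passed the threshold in 12 of 12 fits that each left out 1 mouse, with highest adjusted p of 0.0290, 0.0264 and 0.0389. Without KO PBS 136, which enters the shared estimate of spread, 8 genes passed, with Scd3, Far2 and Fa2h added as lower and Dgat2 as higher, in a fit that called 45.7% of all genes. In WT mice the hair list fell together with these genes, in 15 of its 29 genes (34.0% of all tested genes called) and with a median log2 fold change of −7.81. With its mean as a covariate 0 of the 10 genes passed, in a fit in which 3 of all genes did (0.0164%). The log2 fold changes in that fit were −1.66 for Elovl3, −1.84 for Mc5r, −1.16 for Soat1 and −3.56 for Awat2. Their adjusted p were 0.243, 0.318, 0.225 and 0.164 (edgeR). Elovl4 was at −1.69 and Dgat2 at −0.21, against −0.39 and 0.63 without the covariate. In both fits 8 of the 10 genes had an unadjusted p under 0.05, and without the covariate 8686 of all 18311 genes did. In WT mice the hair list did not overlap between treatments, so its part and that of bleomycin cannot be told apart.

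**Figure D2:**
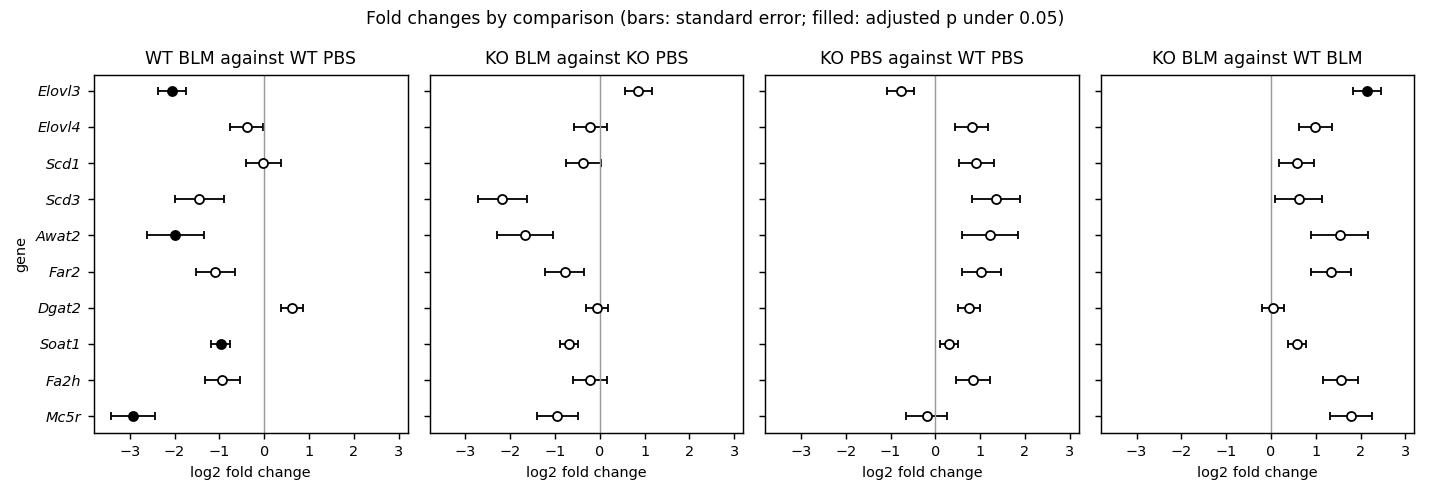
Log2 fold change (horizontal axis) of each gene (vertical axis) in the 4 comparisons between groups, with standard errors; filled points passed the adjusted p threshold. In WT mice 9 of 10 points lie below 0, and between the bleomycin-treated groups all 10 lie above 0.

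In Thy-1–KO mice bleomycin was compared in the same way. Of the 10 genes, 0 passed the threshold (edgeR), with 0.306% of all genes called. An unadjusted p under 0.05 was found for 4 of the 10 and for 3665 of all 18311 genes. Means of 9 genes were lower in KO BLM than in KO PBS skin, and Elovl3 was higher. Groups did not overlap for 2 genes, Elovl3 higher and Soat1 lower, against 19.3% of all genes. The median log2 fold change was −0.53 over the 10 genes and −0.01 over all genes.

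The spread lay within the KO PBS group. Awat2 was at 11.97, 95.6 and 66.1 CPM in KO PBS replicates 136, 137 and 139, and at 15.3, 23.9 and 15.4 CPM in KO BLM mice. Far2 was at 96.0, 344 and 361 CPM in the same KO PBS mice, and at 132, 204 and 129 CPM in KO BLM mice. In both genes replicate 136 was below every KO BLM mouse and replicates 137 and 139 were above every one. Scd3 followed with 58.7, 348 and 259.7 CPM in KO PBS and 59.0, 41.6 and 46.7 CPM in KO BLM mice, so that its 2 high KO PBS mice were far above the rest. Its log2 fold change was −2.18 (SE 0.55, adjusted p = 0.112), and that of Awat2 was −1.67 (SE 0.63, adjusted p = 0.188).

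Scd1 was at 1142, 2445 and 2809.8 CPM in KO PBS and 1638, 2085 and 1229 CPM in KO BLM mice, which overlapped. Fa2h was at 129.6, 298 and 321 CPM in KO PBS and 167, 274 and 207 CPM in KO BLM mice, and Dgat2 at 153, 295 and 319 CPM and at 204, 276 and 255 CPM. Soat1 was at 141, 187 and 181 CPM in KO PBS and 95.7, 125 and 94.9 CPM in KO BLM mice, with no overlap and a log2 fold change of −0.69 (SE 0.20, adjusted p = 0.139). For Mc5r the low and high mice were in the other group: 31.0, 21.5 and 28.5 CPM in KO PBS, and 25.5, 8.28 and 8.06 CPM in KO BLM mice, where only replicate 141 reached the range of the controls. When KO PBS 136 was left out, 4 genes fell past the threshold (Scd3, Awat2, Far2 and Soat1), in a fit that called 14% of all genes, and without KO BLM 141 it was 1, Mc5r, where 6.19% of all genes were called. Without both mice 5 fell (Scd3, Mc5r, Awat2, Far2 and Soat1), where 22.3% of all genes were called.

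The baseline comparison of KO PBS with WT PBS skin turned on the same mouse. Of the 10 genes, 0 passed, with 0.0655% of all genes called (edgeR). An unadjusted p under 0.05 was found for 6 of the 10 and for 3727 of all 18311 genes. The log2 fold change was above 0 for 8 of the 10, with a median of 0.82 against 0.02 for all genes. Groups did not overlap for 1 gene, Elovl3, which was lower in KO PBS skin, against 18.9% of all genes. Its log2 fold change was −0.77 (SE 0.30, adjusted p = 0.221). KO PBS 136 lay within the WT PBS range for 7 of the 10 genes and below it for Elovl3, Awat2 and Far2. KO PBS 137 and 139 were each above every WT PBS mouse for 8 genes, and below every one for Elovl3 and Mc5r. The matching shares over all genes were not computed, so these counts are not set against a background. Without replicate 136, 7 genes were higher past the threshold (Dgat2, Scd3, Far2, Elovl4, Awat2, Scd1 and Fa2h), in a fit that called 36.7% of all genes. The 2 mice also had the lowest hair list level and the highest dermal adipocyte list level of the KO PBS mice, 7.22 and 7.64 against 6.17 in replicate 136. Their mean log2 CPM was also higher than in replicate 136 for macrophage genes (6.73 and 6.24 against 4.57), skeletal muscle genes (10.88 and 10.65 against 8.85), fibroblast matrix genes (9.28 and 9.34 against 7.70) and sebaceous gland cell markers (6.04 and 6.12 against 5.12). With the hair list as a covariate, 0 of the 10 genes had an unadjusted p under 0.05 at baseline. That fit called 0.0655% of all genes, and the log2 fold changes of the 10 ran from −0.53 for Elovl3 to 0.58 for Mc5r. Of the KO PBS mice only replicate 136 had a hair list level within the WT PBS range. The parts of hair level and genotype therefore cannot be told apart. The part of the listed cell types in the result was not tested.

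Elovl3 and Awat2, both counted as sebaceous genes, moved apart in these mice. The ratio of Elovl3 to Awat2 counts was 1.72 to 3.48 in WT PBS, 1.79 to 4.06 in WT BLM and 3.36 to 4.49 in KO BLM mice, and 3.70 in KO PBS 136. It was 0.284 in KO PBS 137 and 0.631 in KO PBS 139. Both genes were thus low in WT BLM mice, while only Awat2 was high in these 2 KO PBS mice.

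**Figure D3:**
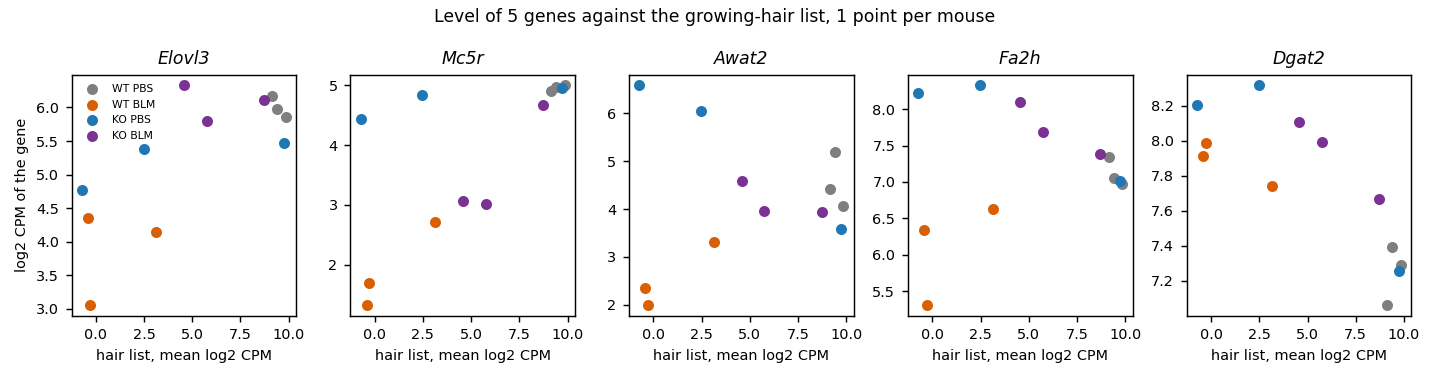
Log2 CPM of 5 of the genes (vertical axes) against the mean log2 CPM of the growing-hair list (horizontal axes), 1 point per mouse, coloured by group. At hair levels of 3.13 or below, the 3 WT BLM mice were below the 2 KO PBS mice for each of the 5 genes. Elovl3 and Mc5r in these KO PBS mice were below every WT PBS mouse. The 4 mice above 9 are the WT PBS mice and KO PBS 136.

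The comparison of KO BLM with WT BLM skin is the one that was known when the genes were chosen, so its values are a description. All 10 genes had a log2 fold change above 0, with a median of 1.17 against −0.03 over all genes. Only Elovl3 was called, where 0.0928% of all genes were, with a log2 fold change of 2.14 (SE 0.31). Values did not overlap for 7 genes, all higher in KO BLM mice: Elovl3, Elovl4, Awat2, Far2, Soat1, Fa2h and Mc5r. That share stands beside 27.5% of all genes, and nothing is read from it. Fold changes on the log2 scale were 1.78 for Mc5r, 1.56 for Fa2h, 1.53 for Awat2 and 1.34 for Far2, and 0.05 for Dgat2. Each of the 3 KO BLM mice was above the WT BLM range for 9 of the 10 genes. The remaining gene was Dgat2 in replicate 141, Scd3 in replicate 143 and Scd1 in replicate 144. This count by mouse was not taken over all genes, and nothing is read from it. Elovl3 was no longer called when any of 9 single mice was left out (WT PBS 159, 160 or 161, WT BLM 146 or 147, KO PBS 139, or KO BLM 141, 143 or 144), with a highest adjusted p of 0.203. Without KO PBS 136, 5 genes were called, in a fit that called 6.89% of all genes.

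Subtracting the WT from the KO response to bleomycin gave a difference of 2.91 on the log2 scale for Elovl3 (SE 0.43), 1.98 for Mc5r (SE 0.65, adjusted p = 0.0946) and 0.73 for Fa2h (SE 0.54). For Scd3 and Dgat2 it was negative, −0.73 (SE 0.75) and −0.69 (SE 0.35). No gene of the 10 passed the threshold, with 0% of all genes called (edgeR; 2 of the 10, and 5687 of all genes, had an unadjusted p under 0.05). This difference contains the comparison of KO BLM with WT BLM skin, since both groups enter each of them. Without KO PBS 136, 3 genes passed (Elovl3, Dgat2 and Mc5r), in a fit that called 39.9% of all genes.

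The genes fell into sets that ranked the 12 mice alike. Far2 and Fa2h had a Spearman rho of 0.94, Awat2 and Far2 of 0.92, and Elovl4 had 0.92 with Fa2h and 0.92 with Far2. Scd3 was closest to Soat1 (0.84), and Soat1 and Mc5r were at 0.73. Elovl3 had its highest rho with Mc5r (0.56) and lower ones with Awat2 (0.47) and Elovl4 (0.38). Dgat2 had a rho of −0.52 with Mc5r and −0.32 with Elovl3. These values describe 12 mice that share treatment, genotype and hair level, and carry no test.

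**Figure D4:**
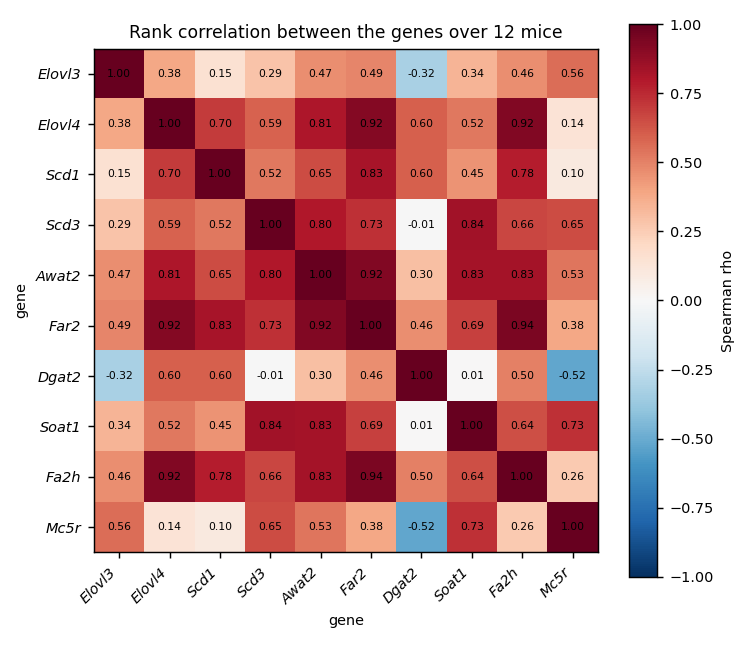
Spearman rho between each pair of the 10 genes over 12 mice (rows and columns are genes; red is positive, blue negative). Elovl4, Awat2, Far2 and Fa2h form a block with rho of 0.81 or more, whereas Elovl3 reached at most 0.56 with any of the others.

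Across all genes tested, those with the most similar ranking of mice were sought for each of the 10. For Awat2 they were Hsd3b6 (Spearman rho 0.99), Serpinb6e (0.98) and Elovl6 (0.98), and for Far2 they were Pxmp4 (0.99), Gm5538 (0.98) and Cyp3a57 (0.98). Elovl4 was nearest to Ces4a (0.97), the wax acyltransferase gene Awat1 (0.96) and Sdr16c6 (0.96), and Fa2h to Pnpla5 (0.98), Hacd2 (0.98) and Lhpp (0.97). Scd3 was nearest to the elongase gene Elovl5 (0.97), Gm13178 (0.97) and Hamp2 (0.96), and Scd1 to Fam180a (0.92), Apmap (0.90) and Ly6c1 (0.90). Soat1 was nearest to the Wnt pathway genes Rspo1 and Notum (0.98 each) and to Reep6 (0.97). Mc5r was nearest to Gm10061 (0.97), Snx33 (0.97) and Insig1 (0.97), Dgat2 to Fnta (0.99), Tapbpl (0.99) and Pir (0.96), and Elovl3 to Rad51c (0.94), Irf2bp1 (0.94) and Ptma (0.94). These were picked as the most similar of 18311 genes over 12 mice, so high values arise by selection.

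Other genes of sebum lipid synthesis were read from a list of 27, all tested. In WT mice 9 fell and 1 rose after bleomycin, where 34.0% of all tested genes were called, so the share was near the background. The median log2 fold change of the list was −0.53, against 0.02 over all genes. The 4 with the smallest adjusted p were Acot1, an acyl-CoA thioesterase (−1.80, adjusted p = 0.00113), Acly, which supplies cytosolic acetyl-CoA (−0.59, adjusted p = 0.00740), the elongase Elovl6 (−1.73, adjusted p = 0.00940) and Acaca, which makes malonyl-CoA (−0.69, adjusted p = 0.0101, all edgeR). Acot1 was at 56.8, 62.5 and 59.8 CPM in WT PBS and 15.7, 18.0 and 17.9 CPM in WT BLM mice, and at 52.4, 45.1 and 47.8 CPM in KO BLM mice. All 3 KO BLM mice were above the WT BLM mice, with a log2 fold change of 1.49 (SE 0.13). Acot1 was the 1 gene of the list called between these groups, where 0.0928% of all genes were called. The list had 0 calls in the KO response, at baseline and in the difference between responses. There 0.306%, 0.0655% and 0% of all genes were called.

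Of 12 sebaceous gland cell markers, 2 fell in WT mice after bleomycin and 0 rose. In this comparison 34.0% of all tested genes were called, so the share was below the background. The median log2 fold change of the list was −0.43, against 0.02 over all genes. The 2 markers called were Prdm1 (−1.06, adjusted p = 0.0436) and Lrig1 (−0.41, adjusted p = 0.0441, edgeR). Both mark cells beyond the gland, since Prdm1 is also expressed in hair follicles and epidermis and Lrig1 in the junction of follicle and gland. The markers had 0 calls in the other comparisons. Awat1 and Dgat2l6 stand in this list and in that of sebum lipid synthesis.

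Of 15 regulators of lipid synthesis, 3 fell and 2 rose in WT mice, where 34.0% of all tested genes were called, and 0 were called elsewhere. The median log2 fold change of the list in WT mice was 0.03, against 0.02 over all genes. Insig1, a sterol-sensing inhibitor of SREBP processing, fell by 2.06 on the log2 scale (adjusted p = 0.00822), and its relative Insig2 by 1.22 (adjusted p = 0.0102). Mlxipl, which encodes the carbohydrate-responsive factor ChREBP, rose by 1.59 (adjusted p = 0.0168) and Nr1h3, which encodes LXR alpha, by 1.33 (adjusted p = 0.0246, all edgeR). Insig1 was at 92.4, 111 and 97.5 CPM in WT PBS and 16.7, 31.0 and 24.5 CPM in WT BLM mice. It was at 109.8, 38.8 and 46.9 CPM in KO PBS and 71.1, 45.4 and 33.0 CPM in KO BLM mice, where replicates 136 and 141 were the highest of their groups, as they were for the hair list.

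Of the melanocortin system, to which Mc5r belongs, 7 of 12 listed genes were tested. After bleomycin 1 of these rose and 2 fell in WT mice, where 34.0% of all tested genes were called. In WT mice Mc1r, the receptor of melanocytes, fell by 4.39 on the log2 scale (SE 0.86, adjusted p = 0.00760) and Atrn, an accessory receptor for agouti protein, by 0.85 (adjusted p = 0.0273), while Agrp, a melanocortin receptor antagonist, rose by 1.48 (adjusted p = 0.0481, all edgeR) at levels of 0.24 to 1.08 CPM. Mc1r was at 25.5, 18.1 and 25.6 CPM in WT PBS, 0.59, 0.95 and 1.74 CPM in WT BLM, 4.69, 0.63 and 0.48 CPM in KO PBS and 11.7, 4.40 and 5.51 CPM in KO BLM mice. Mc5r, by contrast, was at 21.5 CPM or more in each KO PBS mouse. The difference between the 2 receptors was not tested.

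The 10 genes are spread over 8 chromosomes in GENCODE M21 (GRCm38). Elovl3 (chr19:46131897-46135694, plus strand), Scd1 (chr19:44394455-44407879, minus strand) and Scd3 (chr19:44203269-44244016, plus strand) share a chromosome. Elovl4 lies at chr9:83778692-83806277, Awat2 at chrX:100402221-100442717, Dgat2 at chr7:99153658-99182719, Soat1 at chr1:156424525-156474331 and Fa2h at chr8:111345135-111393824, all on the minus strand. Far2 (chr6:148047259-148182758) and Mc5r (chr18:68337596-68342446) are on the plus strand. The longest coding sequences ran from 813 bases in Elovl3 to 1620 in Soat1.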

How the data were processed

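Skin RNA of 12 mice was sequenced by the authors from stranded mRNA libraries, and the deposited file holds raw read counts per gene symbol, without normalization. Per the submitters' processing notes the build was GRCm38.p6 and MultiQC 1.7 was used; the aligner, the annotation and the use of strand for counting are not given in the sources used here. All 12 columns were matched to samples by mouse number. Genes were kept by filterByExpr (edgeR 4.0.16, R 4.3.3; minimum count 10, total 15), normalized by TMM and fitted over 4 group means with a quasi-likelihood negative binomial model. The 5 contrasts were tested with Benjamini-Hochberg adjustment over 18311 genes and a threshold of 0.05; p-values measure the spread between single mice, and groups of 3 against 3 cannot give an exact permutation p below 0.1. The biological coefficient of variation was 34.9%. Log2 CPM used a prior count of 2.

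The steps were tested on simulated counts with known changes. DESeq2 1.42.0, other normalizations and filters, fits of only the groups compared, fits without single mice and a hair covariate were tried as alternatives. The 10 genes and the lists were chosen with earlier results of these data known, so the adjusted p-values are no independent evidence. Named genes were the 10 members, Thy1, up to 4 genes per described list and comparison with the smallest adjusted p past the threshold, and the 3 genes of highest Spearman rho with each member. Krt79, Pparg and Plin5 are named as sebaceous gland cell markers with a higher mean in WT BLM than in WT PBS skin. Lists of other cell types are summarised in the closing section. Lengths and coding sequences came from GENCODE M21, and promoters from RefSeq.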

Additional observations from a re-analysis of the deposited data

Results flagged for a closer look

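For Elovl3 and Mc1r, KO mice lay below WT mice after PBS and above WT mice after bleomycin, without overlap in either treatment. The difference between the responses (KO minus WT) was 2.91 on the log2 scale for Elovl3. WT PBS mice were at 58.0 to 72.0 CPM and KO PBS mice at 27.2 to 44.3 CPM, against 8.30 to 20.4 CPM in WT BLM and 55.4 to 80.3 CPM in KO BLM mice. For Mc1r the difference was 6.29 on the log2 scale, with 18.1 to 25.6 CPM in WT PBS, 0.48 to 4.69 CPM in KO PBS, 0.59 to 1.74 CPM in WT BLM and 4.40 to 11.7 CPM in KO BLM mice. KO PBS 136 was the highest KO PBS mouse for both genes. In the fit over all genes neither difference passed the adjusted threshold. Both genes were picked because they showed this pattern, and the share of all genes that show it is not given. For Elovl3 the result between the bleomycin-treated groups was already known when the genes were chosen. The pattern is therefore a description and carries no test.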

How the results depend on the processing

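With RLE or upper-quartile normalization, or a minimum mean of 1 CPM, the number of the 10 genes past the threshold was the same as in the report in all 5 comparisons. In WT mice (4 genes) it was 7 with DESeq2 (34.2% of all genes called), 8 when only the 2 groups were fitted (44.6%) and 8 without KO PBS 136 and KO BLM 141 (49%). It was 0 with the hair list as a covariate (0.0164%), where 8 had an unadjusted p under 0.05 (8 without it, with 8686 of all 18311 genes). In KO mice (0 genes) it was 2 with DESeq2 (6.14%) and 5 without those 2 mice (22.3%). At baseline (0 genes) it was 7 without those 2 mice (40.9%). Between the bleomycin-treated groups (1 gene) it was 3 with DESeq2 (3.34%), 0 when only these groups were fitted (0.0346%), and 4 without those 2 mice (4.36%). With the hair covariate it was 1, but the gene was Elovl4 and not Elovl3. For the difference between responses (0 genes) it was 2 with DESeq2 (Elovl3 and Mc5r; 18.5%), 1 without a filter on low counts (Elovl3; 0.0577%) and 2 without those 2 mice (38.6%). Leaving out each mouse in turn gave 3 to 8 genes in WT mice, 0 to 4 in KO mice, 0 to 7 at baseline, 0 to 5 between the bleomycin-treated groups and 0 to 3 for the difference; the highest count was without KO PBS 136 in each case. The cause was not tested. No gene called in the report or in the fit concerned changed direction, with 0 reversed. Among values called in neither, 28 changed sign, such as Dgat2 in WT mice with the hair covariate (−0.21 against 0.63).

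No paired analysis was possible because every mouse has its own number. DESeq2 called 1212 genes in the KO response where edgeR called 56, 755 against 12 at baseline, 614 against 17 between the bleomycin-treated groups, and 3279 against 0 for the difference between responses.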

Other observations

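Lists of other cell types were compared between WT PBS and WT BLM skin beside the sebum genes, where 34.0% of all tested genes were called. The median log2 fold change over all genes was 0.02. Of 12 skeletal muscle genes 11 rose, with a median log2 fold change of 2.43, as did 10 of 12 macrophage genes (2.15), 8 of 12 fibroblast matrix genes (1.62), 3 of 14 genes of the interfollicular epidermis (0.62) and 2 of 16 dermal adipocyte genes (0.37), and none of these fell. In the other comparisons these lists and the hair list had 0 calls by edgeR, but their medians were not all near 0. The median log2 fold change of the hair list was 5.84 in KO BLM against WT BLM skin. At baseline it was 1.88 for muscle and 1.24 for adipocyte genes, and in the KO response −1.30 for adipocyte genes. The mean log2 CPM of the macrophage list was 6.26 to 6.57 in KO BLM and 6.69 to 7.35 in WT BLM mice, without overlap. The part of these cell types in the sebum gene values was not tested.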
